A study of Mus musculus with 14 samples.

Results

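Mast cell and eosinophil genes were followed through bulk RNA-seq of 14 CT26 tumors. CT26 is a carcinoma line that came from the colon of a Balb/c mouse, and the tumors grew under the skin of the flanks from cells that carried a barcode library. The set holds 10 genes of 53801 in the deposited tables, chosen by name: Cpa3, Mcpt4, Cma1, Tpsb2 and Kit for mast cells, and Siglecf, Ear2, Prg2, Ccr3 and Il5ra for eosinophils. There were 5 tumors from 4 mice treated with control IgG, 5 anti-PD-1 responder tumors from 4 mice, and 4 anti-PD-1 non-responder tumors from 3 mice. All were of the BALBc strain and carried the same CT26 line, and every mouse received an antibody, either the control IgG or the PD-1 blocker. Responder and non-responder are the labels of the study, which set them by tumor size after treatment, so that response and final tumor size cannot be told apart in any comparison between these groups.

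Mast cells are granulated cells of skin and other connective tissue, known for their part in allergy. They store proteases in their granules, and they depend on the receptor Kit and its ligand stem cell factor (Kitl). Cpa3 is the carboxypeptidase of these granules, Cma1 and Mcpt4 are chymases, and Tpsb2 is a tryptase. Eosinophils mature in the bone marrow under IL-5, whose receptor holds the Il5ra chain, and enter tissue along the eotaxins Ccl11 and Ccl24, which are ligands of Ccr3. Prg2 (major basic protein), Epx (eosinophil peroxidase) and the Ear ribonucleases are proteins of their granules, and Siglecf is a lectin of their surface. Some of these genes are not particular to these cells: Kit is also used by melanocytes and progenitor cells, and Ear2 and Siglecf RNA are known from monocytes and macrophages.

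Tumors are named by mouse number and flank, and mice 14, 30 and 33 gave a tumor of each flank. The totals of the estimated read counts were 33237744 to 48481461 per tumor, so that 3 counts, taken as the floor of detection, were 0.0596 to 0.0950 CPM (counts scaled to the library total and its TMM factor). The tumors differed in the tissue taken with them. The summed TPM (a level per transcript length, with a common total for all tumors) of 10 skin epidermis markers was 7.12 in tumor 14R, 13.2 in 30L, 36.0 in 26R, and 103.0 to 985 in the other 11 tumors, and the sum of 8 skeletal muscle markers was highest in 14R, at 1194 TPM. Of the colon epithelium markers that bear on the tissue label, Vil1 had 0 to 8 counts and Cdx2 1 to 31. Epcam had 19 to 235, Krt8 30 to 1267, Krt18 289 to 721 and Krt20 6535 to 19617. In bulk tumors, fewer cells of a type and less RNA per cell cannot be told apart.

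Mast cell transcripts were present in every tumor, and eosinophil transcripts had fewer counts. Of the latter, Prg2 and Il5ra were at the floor of 3 counts or below it in 8 of 14 tumors each. The mast cell genes had 254 to 1170 counts in each tumor. On the TPM scale, the mean levels over the 14 tumors were 24.6 for Cma1, 21.7 for Tpsb2, 21.4 for Mcpt4, 16.85 for Cpa3, and 3.02 for Kit. The ranges of the 4 proteases over tumors (8.90 to 36.1 TPM) overlapped one another, so that their order was within the spread, whereas Kit, at 1.58 to 4.51 TPM, lay below all of them. Ear2 had a mean level of 1.29 TPM, Ccr3 0.291, Prg2 0.25, Siglecf 0.136 and Il5ra 0.0471. Ear2 ranged from 0.23 to 3.04 TPM and overlapped Kit, and the other 4 eosinophil genes overlapped one another.

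**Figure D1:**
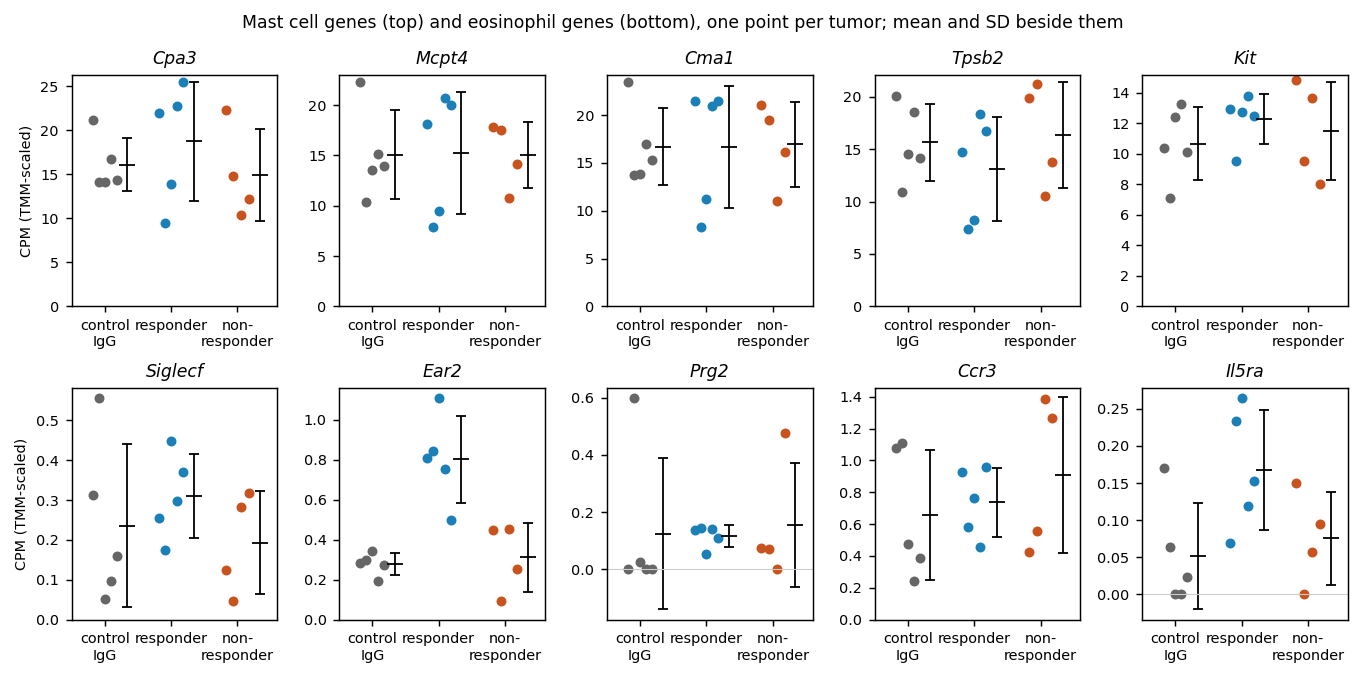
Expression of the 10 genes in each tumor, as CPM scaled by TMM factors (vertical axis, linear), for control IgG, responder and non-responder tumors, with 1 point per tumor and the mean and SD beside the points. The mast cell genes lie between 7.07 and 25.5 CPM with overlapping groups, and Ear2 is the gene whose responder tumors, at 0.502 to 1.11 CPM, lie above all tumors of both other groups.

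The promoters of the proteases that moved together across tumors are shown first, with that of Ear2, the gene that differed between groups, for contrast. Each sequence is the 250 bases before the start site in RefSeq (GRCm38.p6, which the labels call mm10), on the strand of the gene and 5′ to 3′. GATA factors, among them Gata2 of mast cells and Gata1 of eosinophils, are known to bind the word AGATAA and its variants, which here were TGATAA (first base changed), AGATAG (last base changed) and TGATAG (both changed), and matches on either strand are in capitals.
Cpa3, chr3:20242182-20242431, minus strand: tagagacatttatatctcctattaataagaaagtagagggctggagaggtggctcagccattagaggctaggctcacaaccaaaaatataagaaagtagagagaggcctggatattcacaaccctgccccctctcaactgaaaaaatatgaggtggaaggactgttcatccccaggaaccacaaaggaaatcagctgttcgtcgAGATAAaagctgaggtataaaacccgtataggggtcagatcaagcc
Mcpt4, chr14:56062311-56062560, minus strand: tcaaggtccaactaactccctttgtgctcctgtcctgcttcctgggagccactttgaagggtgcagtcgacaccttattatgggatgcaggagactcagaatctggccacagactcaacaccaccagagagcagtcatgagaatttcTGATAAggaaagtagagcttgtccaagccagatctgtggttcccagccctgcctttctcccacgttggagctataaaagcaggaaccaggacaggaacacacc
Cma1, chr14:55944676-55944925, minus strand: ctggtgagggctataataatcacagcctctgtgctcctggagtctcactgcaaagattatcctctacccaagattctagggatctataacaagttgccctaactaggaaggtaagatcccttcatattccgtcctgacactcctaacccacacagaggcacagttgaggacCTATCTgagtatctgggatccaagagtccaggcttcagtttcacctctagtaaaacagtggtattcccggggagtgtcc
Ear2, chr14:44102404-44102653, plus strand: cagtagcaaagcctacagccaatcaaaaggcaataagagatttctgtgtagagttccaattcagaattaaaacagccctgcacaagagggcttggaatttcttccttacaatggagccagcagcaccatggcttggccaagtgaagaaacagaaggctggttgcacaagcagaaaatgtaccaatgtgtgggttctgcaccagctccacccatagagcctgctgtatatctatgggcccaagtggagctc

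Of the 10 genes, 8 had a promoter in the table, and Tpsb2 and Prg2 are named only. A match was found in 5 of the 8. It began 46 bases before the start site of Cpa3, 103 before that of Mcpt4, and 79 before that of Cma1, where it is read on the other strand as CTATCT. The receptor genes Ccr3 (matches 64 and 30 bases before the start) and Il5ra (74 bases) also held one, and these letters were not in the windows of Kit, Siglecf and Ear2. Of 27025 promoters in the table, 27.1% held at least 1 match, so a match is common, and it is given here as a description of the sequence.

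In the genome, Cpa3 lies on chromosome 3 (GRCm38, 20215620 to 20242181, minus strand), Cma1 (55941451 to 55944675) and Mcpt4 (56059629 to 56062313) on chromosome 14, Tpsb2 on chromosome 17 (25366305 to 25369098) and Kit on chromosome 5 (75574916 to 75656722). Cpa3 was measured at 21.1, 14.1, 14.1, 16.8 and 14.4 CPM in control tumors 14L, 14R, 16R, 17R and 20R. In responders it was at 22.0, 9.42, 13.9, 22.8 and 25.5 CPM in tumors 24L, 26R, 30L, 30R and 35L. In non-responders it was at 22.3, 14.8, 10.4 and 12.2 CPM in tumors 29L, 32R, 33L and 33R. The 3 groups overlapped, and both the lowest and the highest tumor were responders.

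The other proteases followed a similar pattern over tumors. Mcpt4 was at 7.87 to 22.3 CPM, Cma1 at 8.28 to 23.5 and Tpsb2 at 7.40 to 21.2, and tumor 26R was the lowest for each. The highest tumor was control tumor 14L for both chymases and non-responder 32R for Tpsb2. Across the 14 tumors, Pearson's r of log2 CPM was 0.971 between Mcpt4 and Cma1, 0.921 between Mcpt4 and Tpsb2, and 0.888 between Cpa3 and Cma1. After the group means were taken out, these were 0.971, 0.962 and 0.951. The correlations describe 14 tumors from 11 mice, in which any cell type that varies in amount carries its genes along.

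**Figure D2:**
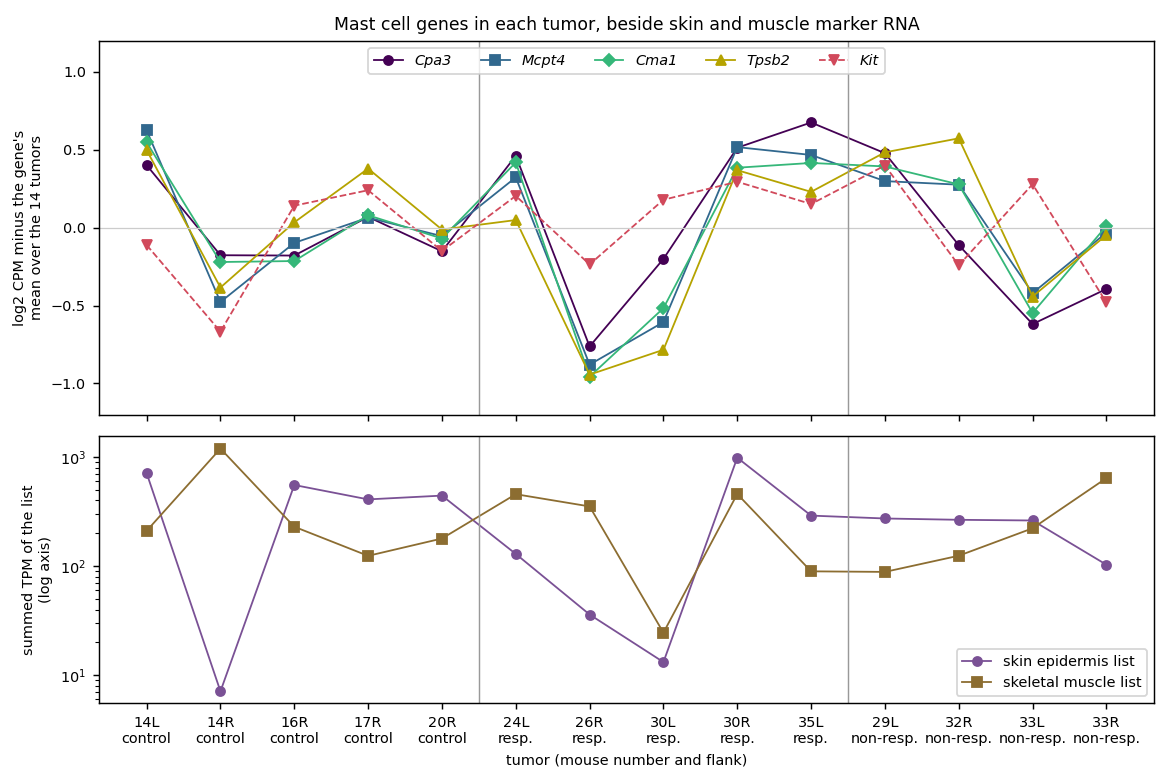
The upper panel shows log2 CPM of the 5 mast cell genes minus each gene's mean over the 14 tumors, and the lower panel the summed TPM of the skin epidermis and skeletal muscle markers (log axis), with tumors ordered by group along the horizontal axis. The solid lines of the 4 proteases lie below 0 together in tumors such as 14R, 26R, 30L and 33L. The dashed line of Kit is also below 0 in 14R and 26R, and stays above 0 in 30L and 33L.

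Kit did not follow the proteases closely. Its level was 7.07 to 14.8 CPM, lowest in control tumor 14R and highest in non-responder 29L, and its r with the 4 proteases was 0.221 to 0.439. By the rule of highest r over the 14 tumors, the genes most like Kit were Adgrf5 (0.907), an adhesion receptor, Ptprm (0.890), a receptor phosphatase, and 4931406P16Rik (0.887). Those most like Cpa3 were Cyp11a1 (0.919), the enzyme that starts steroid synthesis from cholesterol, Pmel (0.902), a melanosome protein, and Cma1. Mcpt4 was most like Cma1, Tpsb2 and Pmel (0.884), Cma1 most like Mcpt4, Tpsb2 and Cyp11a1 (0.892), and Tpsb2 most like Tpsab1 (0.933), a further tryptase, Mcpt4 and Cma1.

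The skin marker sum was among the lowest in several tumors with little protease RNA, but not in all. The summed level of the 4 proteases was 45.7 TPM in 26R, 57.9 in 30L and 58.8 in 14R, the tumors with the least skin marker RNA, and it was highest in 30R (125.2 TPM), which had the most, at 985 TPM. However, it was 58.1 TPM in 33L and 55.8 in 33R, whose skin sums were 261.9 and 103.0 TPM. In responder 24L the protease sum was 109.7 TPM, with a skin sum of 129.3 TPM. In 14R, where the skin sum was 7.12 TPM, Cpa3 had 662 counts (14.1 CPM). The other proteases were at their lowest among control tumors there, at 10.4 (Mcpt4), 13.8 (Cma1) and 10.9 CPM (Tpsb2). The part of skin in the differences between tumors was not tested. With the mean log2 CPM of the skin markers as a covariate, no mast cell gene passed the test between groups.

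In the 3 mice with a tumor on each flank, neither side was higher throughout. Cma1 was 1.70-fold higher in the left than in the right tumor of mouse 14, and in mice 30 and 33 it was 1.87-fold and 1.47-fold higher in the right tumor. Cpa3 was 1.49-fold higher on the left in mouse 14, and 1.64-fold and 1.17-fold higher on the right in mice 30 and 33. The correlation within a mouse that limma estimated over all genes was -0.282.

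The comparison of responders with non-responders asks which transcripts went with the response to anti-PD-1 among treated tumors. None of the 5 mast cell genes passed the test. The responders had a mean Cpa3 level of 18.7 ± 6.77 CPM (SD, n = 5), the non-responders of 14.9 ± 5.22 CPM (SD, n = 4), and the log2 fold change was 0.33 (SE 0.27, 95% interval -0.25 to 0.92, edgeR adjusted p = 0.458). Kit differed by 0.096 on the log2 scale (SE 0.20, interval -0.33 to 0.52, adjusted p = 0.793). The chymases differed by 0.017 (Mcpt4, interval -0.60 to 0.63) and -0.021 (Cma1, interval -0.62 to 0.58), and Tpsb2 by -0.32 (interval -0.92 to 0.29, adjusted p = 0.494). Differences within these intervals could not be seen with these tumors, so the values do not show that the groups were alike.

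Against control IgG tumors, the mast cell genes did not pass the test either. The log2 fold changes of responders over control tumors were 0.22 for Cpa3 (SE 0.26, adjusted p = 0.620), 0.021 for Mcpt4, 0.0031 for Cma1, -0.25 for Tpsb2 (SE 0.27, adjusted p = 0.586), and 0.21 for Kit (SE 0.19, adjusted p = 0.513). Those of non-responders over control tumors were -0.11 to 0.11, with adjusted p of 0.941 to 0.999. Both comparisons with control use the same 5 control tumors. In all 3 comparisons, 0 of the 5 mast cell genes were called and 0 had an unadjusted p under 0.05 in edgeR, and DESeq2 and limma-voom called 0 as well. Over all 16287 genes tested, 9.90% were called between responders and non-responders, 13.2% between responders and control tumors, and 0% between non-responders and control tumors, where 758 genes had an unadjusted p under 0.05 and DESeq2 called 18.

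**Figure D3:**
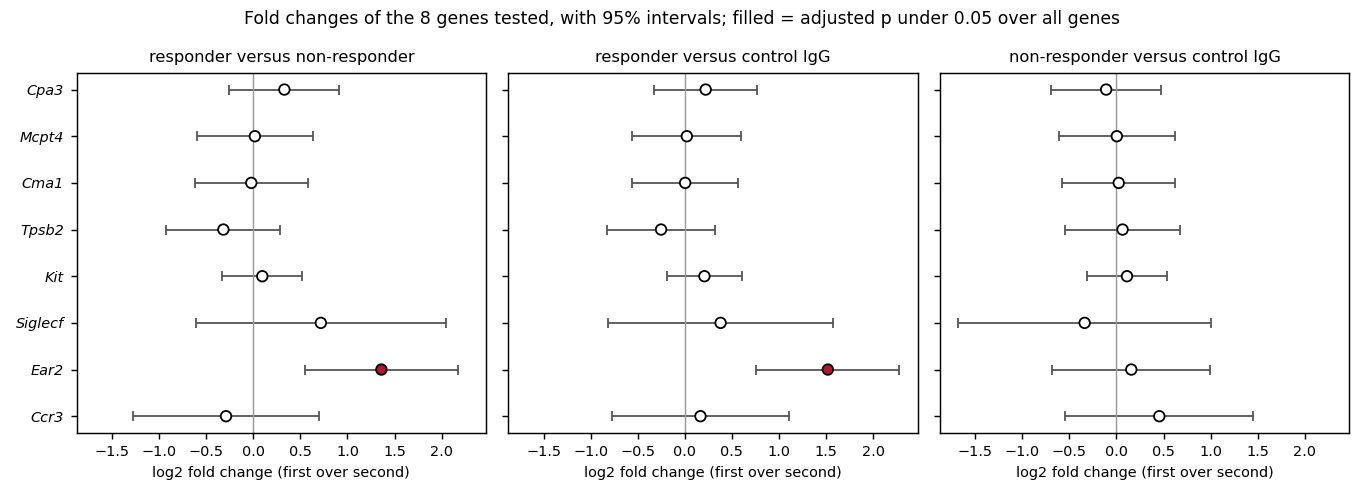
Log2 fold changes of the 8 genes that passed the filter on low counts, with 95% intervals as bars, in each of the 3 comparisons (a positive value is higher in the group named first; filled points have an adjusted p under 0.05). The intervals of the 5 mast cell genes include 0 in each panel, and Ear2 lies at 1.36 and 1.52 in the panels with responders.

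Some ratios between mast cell transcripts of one tumor did not overlap between groups. In responders, the TPM of Tpsab1 was 0.853 to 1.75 times that of Cpa3 within a tumor, against 2.24 to 3.63 in non-responders and 1.97 to 3.24 in control tumors, so that the responders lay below all others. Tpsb2 was 0.866 to 1.18 times Cpa3 in responders, below the 1.30 to 2.10 of all non-responders, while the control tumors, at 1.12 to 1.59, overlapped the responders. In contrast, Mcpt4 over Cma1 was 0.723 to 0.947 over all 14 tumors. Of 10 such ratios computed, 2 did not overlap between responders and non-responders, 3 between responders and control tumors (Tpsab1 over Cpa3, Tpsab1 over Tpsb2, and Cma1 over Cpa3, whose ranges were 1.18 to 1.43 and 1.43 to 1.63), and 0 between non-responders and control tumors. For Cma1 over Cpa3 the nearest tumors were responder 24L at 1.43 and control tumor 14R at 1.432. Of single genes on the CPM scale, 12.8%, 15.1% and 1.25% did not overlap in these comparisons. No such share was computed for ratios of TPM, and several of the ratios share a gene. These ratios were looked at after the values were seen, and are given without a test. By itself, Tpsab1 was at 0.61 of its control level in responders (log2 fold change -0.70, SE 0.33, adjusted p = 0.188), which did not pass. The mean fragment length, which enters the TPM of short transcripts, was 269.5 to 277.0 bases in responders, 277.5 to 287.8 in non-responders and 268.7 to 277.7 in control tumors, and its part in these ratios was not tested.

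**Figure D4:**
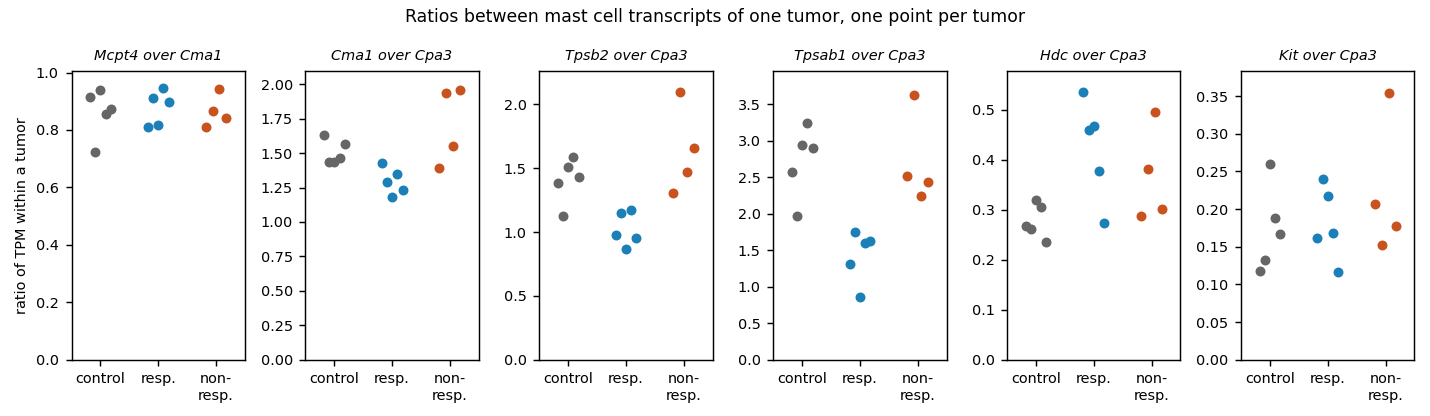
Ratios of TPM between mast cell transcripts within a tumor (vertical axes, linear from 0), with 1 point per tumor in control IgG, responder and non-responder tumors. Tpsab1 over Cpa3 is at most 1.75 in the responders and at least 1.97 in the other tumors, and Mcpt4 over Cma1 stays between 0.723 and 0.947.

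The other mast cell genes passed the test about as often as genes in general. Of 19 companion genes of mast cells, 15 were tested, and responders were higher in 0 and lower in 2 of them than non-responders (median log2 fold change -0.026, against 0.0062 over all genes), and also higher in 0 and lower in 2 than control tumors (median -0.087, against -0.011). Over all genes, 9.90% and 13.2% were called in these comparisons. Rab27b, a small GTPase of granule secretion, fell by 0.59 on the log2 scale against non-responders (SE 0.17, adjusted p = 0.0470) and by 0.80 against control tumors (SE 0.17, adjusted p = 0.00647). Gata2, a transcription factor of mast cells, was at 15.7 to 21.2 CPM in responders and 19.9 to 28.2 in non-responders (log2 fold change -0.41, SE 0.11, adjusted p = 0.0361). Without a filter on low counts, the calls against non-responders were lost for Rab27b (adjusted p = 0.0917) and Gata2 (0.0667). Hpgds, which makes prostaglandin D, fell by 0.61 against control tumors (SE 0.14, adjusted p = 0.0134). These 3 genes are also used by other cells.

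Further genes that define mast cells were detected in each tumor. The IgE receptor chains Fcer1a and Ms4a2 had 40 to 147 and 16 to 53 counts, Hdc, the enzyme that makes histamine, 204 to 640, and Mrgprb2, the receptor for basic secretagogues, 11 to 46. None of them passed the test in any comparison. The nearest was Hdc, at 10.3 against 7.47 CPM in responders and control tumors, with a log2 fold change of 0.46 (SE 0.22, unadjusted p = 0.0487, adjusted p = 0.176). Mcpt8, a basophil protease, had 9 to 50 counts, and its adjusted p was 0.716 to 0.931.

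For eosinophils, the counts behind each gene set the limit. Siglecf had 2 to 26 counts per tumor, Ear2 4 to 42, Prg2 0 to 28, Ccr3 10 to 52, and Il5ra 0 to 10. Prg2 and Il5ra had 3 counts or fewer in 8 of 14 tumors each and did not pass the filter on low counts, so that 3 of the 5 eosinophil genes and 8 of all 10 were tested. Epx had 3 counts in control tumor 14R and 0 in the other 13 tumors, which allows up to 0.0596 to 0.0950 CPM in each. Ear1 had 7 counts in 14R and 1 each in 30L and 33R, and Il5 had 0 to 2. Prg3 and Ear10, granule genes of the same families, were at 0 in all 14 tumors.

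**Figure D5:**
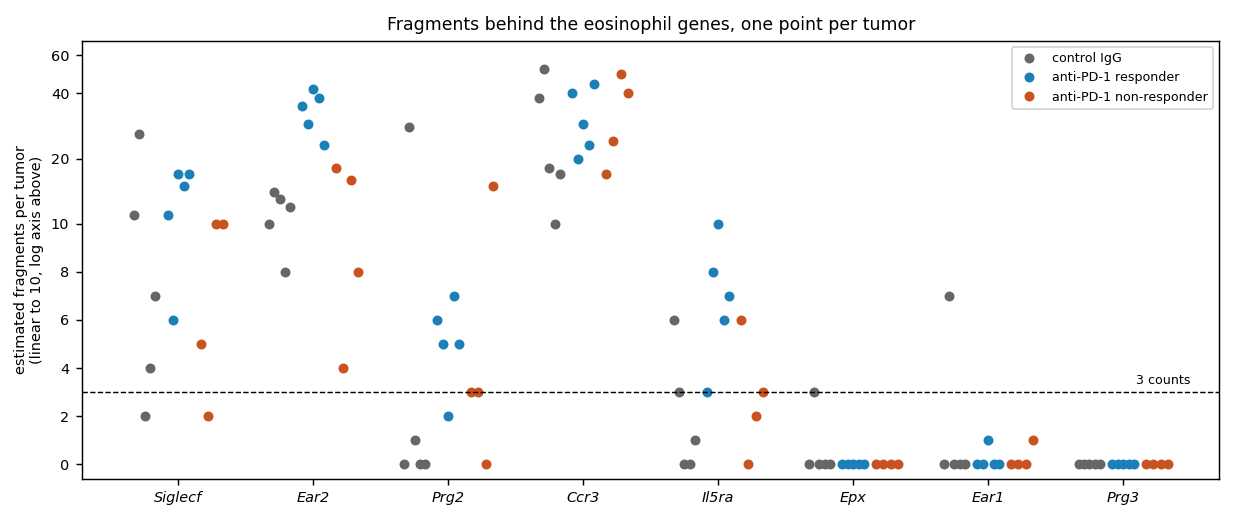
Estimated read counts of the 5 eosinophil genes and of the granule genes Epx, Ear1 and Prg3 in each tumor (vertical axis linear to 10 and logarithmic above, 1 point per tumor, dashed line at 3 counts). Ccr3 and Ear2 lie above the line in every tumor, Prg2 and Il5ra on both sides of it, and Epx, Ear1 and Prg3 at or near 0 apart from control tumor 14R.

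Ear2, a ribonuclease of the eosinophil-associated family on chromosome 14 (44102654 to 44103534, plus strand), was more abundant in responders than in both other groups. It was at 0.809, 0.845, 1.11, 0.755 and 0.502 CPM in responders 24L, 26R, 30L, 30R and 35L, from 23 to 42 counts. In non-responders 29L, 32R, 33L and 33R it was at 0.448, 0.0926, 0.453 and 0.253 CPM, from 4 to 18 counts. In control tumors 14L, 14R, 16R, 17R and 20R it was at 0.284, 0.299, 0.342, 0.193 and 0.274 CPM, from 8 to 14 counts. Every responder lay above every other tumor, and the nearest were responder 35L and non-responder 33L.

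Mean Ear2 levels were 0.804 ± 0.218 CPM (SD, n = 5) for responders, 0.312 ± 0.173 CPM (SD, n = 4) for non-responders, and 0.278 ± 0.0543 CPM (SD, n = 5) for control tumors. Against non-responders the ratio of means was 2.58 and the log2 fold change 1.36 (SE 0.38, 95% interval 0.55 to 2.17, adjusted p = 0.0383). Against control tumors the ratio was 2.89, with a log2 fold change of 1.52 (SE 0.35, interval 0.76 to 2.28, adjusted p = 0.0126). Non-responders did not differ from control tumors beyond the spread (0.16, SE 0.39, adjusted p = 0.953). Ear2 was thus 1 of 8 genes called in each comparison with responders, beside 9.90% and 13.2% of all genes, which is near the background. Groups without overlap were seen in 12.8% of all genes between responders and non-responders, in 15.1% between responders and control tumors, and in 1.25% between non-responders and control tumors, where 0 of the 8 genes had none.

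The call against control tumors was kept in all 11 alternatives in which Ear2 was tested and without any 1 tumor (14 of 14 fits, adjusted p 0.00473 to 0.0361). The call against non-responders was less firm. It held in 8 of 11 alternatives and was lost without a filter on low counts (adjusted p = 0.0578), with the tumors of a mouse summed (0.0653), and with only the 2 groups in the fit (0.0918), and it was lost without 24L (0.0786), 26R (0.0571), 30L (0.0746), 30R (0.0706), 32R (0.0734) or 33R (0.0933). A filter at a mean of 1 CPM removed Ear2 from the test.

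Of the marker sums of other cells, those of macrophages and endothelium were also higher in responders than in all other tumors. That of T cells was higher than in non-responders but overlapped the control tumors. The neutrophil sum was 35.0 to 134.5 TPM in responders, 78.8 to 200.5 in non-responders and 74.6 to 269.9 in control tumors. It thus overlapped between groups, as did the sums of the remaining lists. The summed level of 8 macrophage markers, each above 3 counts in every tumor, was 1442 to 1922 TPM in responders, 1065 to 1291 in non-responders and 1168 to 1351 in control tumors, so that responders were highest here too, and the sum of 6 endothelium markers was 84.8 to 112.1 TPM in responders against 43.8 to 81.4 in the other tumors. The sum of 6 T cell markers was 31.8 to 69.6 TPM in responders, 12.7 to 21.1 in non-responders and 14.4 to 33.6 in control tumors. These sums are in TPM, a scale on which the median log2 fold change of all genes was itself raised in responders. With a pseudocount of 1 it was 0.17 against non-responders and 0.085 against control tumors, and its part in these sums was not tested. In responders 24L, 26R, 30L, 30R and 35L, whose Ear2 levels are given above in the same order, the macrophage sums were 1707, 1479, 1442, 1922 and 1486 TPM. The part of macrophages, endothelium and T cells in the Ear2 difference was not tested. The genes most like Ear2 over the 14 tumors were Rhou (r = 0.920), Ifngr1 (0.897), a chain of the interferon-γ receptor, and Gfra2 (0.891), a receptor of the GDNF family, and within groups these fell to 0.825, 0.742 and 0.748. Of the stretches of 100 bases in Ear2 transcripts, 13.9% also occur in Ear10 or the pseudogene Ear-ps2, so that its counts carry some uncertainty, although they were whole numbers in every tumor.

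Siglecf (chromosome 7, 43351341 to 43359531) ranged from 2 to 26 counts over tumors, and no difference between groups passed. It was at 0.312, 0.555, 0.0526, 0.0965 and 0.160 CPM in control tumors 14L, 14R, 16R, 17R and 20R. Responders 24L, 26R, 30L, 30R and 35L had 0.254, 0.175, 0.449, 0.298 and 0.371 CPM, and non-responders 29L, 32R, 33L and 33R had 0.125, 0.0463, 0.283 and 0.317. The highest of all tumors, 14R, and the second lowest, 16R, were thus both control tumors. Responders had a log2 fold change of 0.72 over non-responders (SE 0.62, interval -0.61 to 2.04, adjusted p = 0.478) and 0.38 over control tumors (SE 0.56, adjusted p = 0.706). The genes most like Siglecf were 3830406C13Rik (r = 0.930), Alox15 (0.904), a lipoxygenase of eosinophils and macrophages, and the eotaxin Ccl11 (0.873), all over counts as low as 2 for Siglecf.

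Ccr3 (chromosome 9, 124021972 to 124031689) was detected in every tumor and spread widely within groups. It was at 1.08, 1.11, 0.473, 0.241 and 0.389 CPM in control tumors 14L, 14R, 16R, 17R and 20R, at 0.457 to 0.959 in responders, and at 0.424, 0.556, 1.39 and 1.27 in non-responders 29L, 32R, 33L and 33R. Both tumors of mouse 14 were the highest control tumors, and both tumors of mouse 33 were the highest of all. The log2 fold change was -0.29 for responders over non-responders (SE 0.46, adjusted p = 0.729), that of responders over control tumors 0.17 (SE 0.44, adjusted p = 0.846), and that of non-responders over control tumors 0.45 (SE 0.47, adjusted p = 0.931). Most like Ccr3 were Gm17399 (r = 0.875), Dhh (0.857), a hedgehog ligand, and Pde1a (0.832), a phosphodiesterase.

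Prg2 (chromosome 2, 84980461 to 84983632) rested on 2 tumors. It had 28 counts in control tumor 14R (0.598 CPM) and 15 in non-responder 33R (0.475 CPM), and 0 to 7 in the other 12. The responders, with 6, 5, 2, 7 and 5 counts, lay between 0.0528 and 0.146 CPM, and the other 4 control tumors had 0, 1, 0 and 0 counts. Without the filter, it gave responders a log2 fold change of -0.32 over non-responders (SE 1.14, adjusted p = 0.937). Both tumors with the most Prg2 also had the most skeletal muscle marker RNA, at 1194 and 640.6 TPM, and the part of the tissue taken with the tumor was not tested.

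Il5ra (chromosome 6, 106710357 to 106749037) had 3, 8, 10, 6 and 7 counts in responders, 6, 0, 2 and 3 in non-responders, and 6, 3, 0, 0 and 1 in control tumors. The means were 0.168 ± 0.0804 CPM (SD, n = 5) for responders, 0.0753 ± 0.0630 CPM (SD, n = 4) for non-responders and 0.0515 ± 0.0715 CPM (SD, n = 5) for control tumors, and the groups overlapped. Without the filter, the log2 fold change was 1.14 over non-responders (SE 0.84, adjusted p = 0.498) and 1.68 over control tumors (SE 0.81, adjusted p = 0.276). A difference was not detectable at this depth.

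Of 13 companion genes of eosinophils, 7 were tested, and responders exceeded non-responders in 1 of them (median log2 fold change 0.37) and 0 passed against control tumors (median 0.28), beside 9.90% and 13.2% of all genes called and medians over all genes of 0.0062 and -0.011. The 1 gene, Csf2rb, codes for the β chain shared by the receptors of IL-3, IL-5 and GM-CSF. It was at 31.4 to 50.3 CPM in responders and 19.1 to 34.3 in non-responders (log2 fold change 0.56, SE 0.17, adjusted p = 0.0498), a call that was lost without a filter on low counts (0.0533). Its reads are shared with its near copy Csf2rb2, with counts that were not whole in 14 of 14 tumors.

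Most ligands that feed or recruit these cells did not pass the test. Kitl was at 57.0 to 93.8 CPM over all tumors, with log2 fold changes of 0.0091 to 0.11 in the 3 comparisons. Il33, an alarmin that activates mast cells and eosinophils, was at 13.8 to 33.8 CPM (adjusted p 0.699 to 0.980). Ccl11 was at 2.80 to 9.69 CPM and Ccl24 at 1.07 to 3.73, and for responders over control tumors their log2 fold changes were 0.51 (SE 0.35, adjusted p = 0.373) and 0.52 (SE 0.27, adjusted p = 0.220). Of 14 companion ligands, 9 were tested, of which responders were higher in 1 than non-responders and in 2 than control tumors, where 9.90% and 13.2% of all genes were called in either direction. Ccl5, a chemokine that Ccr3 also binds and that T cells release, was at 14.6 to 27.7 CPM in responders, 6.29 to 8.52 in non-responders and 3.38 to 8.07 in control tumors, with log2 fold changes of 1.45 (SE 0.26, adjusted p = 0.00793) and 1.92 (SE 0.24, adjusted p = 6.04e-04). Ccl8, a further chemokine, rose by 0.84 over control tumors (SE 0.25, adjusted p = 0.0381), whereas over non-responders its change was 0.65 (adjusted p = 0.126).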

How the data were processed

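Bulk tumor RNA-seq of 14 tumors was analysed. Groups and tumor numbers were taken from the labels, and tumors of a mouse from the number and flank. The submitters' processing notes name STAR, RSEM and mm10, and RSEM divides a fragment that fits several genes among them. The authors deposited expected counts, which are estimated counts of fragments for each gene without normalization. The deposited TPM values are scaled by effective length and total, and the deposited FPKM values were read for no result. Of 53801 genes, 53620 were matched to a symbol in GENCODE vM21.

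The counts were rounded, and edgeR 4.0.16 under R 4.3.3 tested them (TMM, filterByExpr, quasi-likelihood test, Benjamini-Hochberg adjustment over 16287 genes, adjusted p under 0.05). Each tumor counted as a replicate, and all 14 entered one fit. Intervals used 14.5 degrees of freedom, which are the residual ones plus the prior ones that edgeR takes from all genes. The SE was the absolute log2 fold change divided by the square root of the F value. The p-values measure the spread between tumors, some of which share a mouse. Within a group no pair differed by as little as sampling noise (lowest chi-square per gene 21.2). TPM alternatives used log2 with a pseudocount of 1 or 0.1. Floors of 3 counts cover counting error only.

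The genes, companion lists and markers were chosen with earlier results of these data known. All 10 genes are named. Companion genes are named where called or where they define the cells or are their main ligands, and for each tested gene the 3 genes of highest r. The text marks genes and ratios outside this rule. Alternatives were DESeq2 1.42.0, limma-voom of limma 3.58.1 (alone or with mouse as random effect), other size factors and filters, TPM, a skin covariate, summed mice, the compared groups alone, and omission of each tumor.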

Additional observations from a re-analysis of the deposited data

Results flagged for a closer look

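In each group of 4 or 5 tumors, the lowest and the highest value of every gene, as log2(CPM + 0.1), were compared with the rest of the group, over 30 groups of values, of which chance alone would single out about 1 in 20. Kit was at 9.53 CPM in responder 26R, far below the other 4 responders (12.5 to 13.8 CPM), with a gap of 0.73 of the log2 range of the group. Prg2 was at 0.598 CPM in control tumor 14R, against 0 to 0.0263 CPM in the other 4 control tumors, with a gap of 0.88 of the log2 range.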

How the results depend on the processing

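Over 12 alternatives and the omission of each of 14 tumors, no mast cell gene passed the threshold in any comparison, nor did Siglecf or Ccr3 in the 11 alternatives that tested them (the minimum mean of 1 CPM removed both) or with a tumor left out. Of the fold changes of the tested genes, 247 kept their direction and call under the alternatives, 29 changed sign and 3 lost the call, and with a tumor left out these were 285, 45 and 6. Each change of sign was in a value that was not called. No paired analysis was possible because the groups share no tumor numbers, and each mouse lies within 1 group.

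Against non-responders, the genes of the set called went from 1 to 0 without a filter, with a minimum mean of 1 CPM, with mice summed, and with only the groups compared, and against control tumors from 1 to 0 with the minimum of 1 CPM, which removes Ear2. Without one tumor, the number was 0 to 1 against non-responders, 1 in each fit of responders against control tumors, and 0 in each of non-responders against them. The companion genes called against non-responders went from 4 to 1 without a filter, to 2 with mice summed, and to 1 with only the groups compared. With a tumor left out they were 1 to 4 (1 without 24L, 30L, 30R, 32R, 33R or 17R, 2 without 14L, 14R or 20R), and 3 to 5 for responders against control tumors. Over all genes, the 1612 calls against non-responders became 2634 with DESeq2, 2973 with mouse as a random effect, 2508 with the skin covariate and 689 with only the groups compared, and were as few as 569 without 24L. The 2147 calls against control tumors were as few as 1190 without 20R. The cause was not tested. The median log2 fold change of all genes moved with TPM, to 0.17 (pseudocount 1) or 0.24 (0.1) against non-responders, to 0.12 (0.1) for responders and -0.11 (0.1) for non-responders against control tumors.

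The changes of sign were small. For responders over non-responders, Mcpt4 was -0.042 with limma-voom, -0.0042 with mouse as a random effect and -0.041 with mice summed, Cma1 was 0.0029 with the minimum of 1 CPM, 0.16 with either TPM scale (0.1596 and 0.1628) and 0.040 with the skin covariate, and Ccr3 was 0.040 on log2(TPM + 0.1). For responders over control tumors, Mcpt4 was -0.010 with mouse as a random effect, and Cma1 was -0.0054 with DESeq2, -0.035 with limma-voom, -0.059 with mouse as a random effect and -0.0035 with DESeq2 size factors. For non-responders over control tumors, Cpa3 was 0.044 with mice summed. Mcpt4 was there -0.0028 with DESeq2, -0.0059 with mouse as a random effect, -0.0015 with DESeq2 size factors, -0.0060 without a filter, -0.0036 with the minimum of 1 CPM, and -0.087 and -0.091 on the TPM scales. Cma1 was -0.039 with mouse as a random effect and -0.097 and -0.10 on the TPM scales, Tpsb2 was -0.067 and -0.070 on those scales, and Ear2 was -0.062 with limma-voom, -0.015 with mouse as a random effect and -0.091 on log2(TPM + 0.1).

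With a tumor left out, the fold changes of responders over non-responders that changed sign ranged from -0.12 to 0.18 for Mcpt4, from -0.17 to 0.15 for Cma1, from -0.024 to 0.24 for Kit and from -0.53 to 0.0058 for Ccr3. Those of responders over control tumors ranged from -0.11 to 0.20 for Mcpt4, from -0.10 to 0.17 for Cma1 and from -0.039 to 0.45 for Ccr3. Those of non-responders over control tumors ranged from -0.37 to 0.021 for Cpa3, from -0.11 to 0.19 for Mcpt4, from -0.099 to 0.18 for Cma1, from -0.086 to 0.22 for Tpsb2, from -0.034 to 0.24 for Kit, from -0.69 to 0.27 for Siglecf and from -0.081 to 0.47 for Ear2. For the eosinophil genes, depth is the limit, since counting error alone gives a coefficient of variation of 27.5% to 38.5% for a tumor at the mean Siglecf count of its group and 38.4% to 70.7% for Il5ra, against 3.49% to 4.19% for Cpa3.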

Other observations

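Of the companion genes of mast cells, 1 was above the 4 proteases in every tumor. Il1rl1, the receptor of IL-33, was at 73.07 to 188.1 TPM, with 7148 to 17201 counts, while the proteases were at 8.90 to 36.1 TPM, and its r with the 4 proteases over the 14 tumors was -0.021 to 0.440. Gata2 had an r of -0.59 with Cpa3, -0.295 with Mcpt4, -0.31 with Cma1 and -0.047 with Tpsb2. These 2 genes were looked at after their values were seen, and both are also used by other cells. Of the chymases and tryptases of other mast cell types in the mouse, Mcpt9 had 0 counts in each tumor, Cma2 0 to 3, Tpsg1 0 to 5, Mcpt1 0 to 9 and Mcpt2 2 to 16. These too were chosen after their values were seen. Il9 was at 0 in all 14 tumors, and Il3 and Il13 had at most 2 counts in a tumor.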
